A study of Mus musculus with 12 samples.

Results

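A set of 10 genes of the integrated stress response was followed by name through 4 conditions of mouse FO B cells. They are Atf4, Atf5, Cebpg, Cebpb, Ddit3, Trib3, Ppp1r15a, Asns, Chac1 and Sesn2, and they make up 10 of the 22561 genes in the count table. They were taken from the table by gene symbol, with no threshold on their counts. All 10 passed the filter on low counts, which left 9431 genes for testing.

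The integrated stress response begins when a kinase phosphorylates the alpha subunit of the translation initiation factor eIF2. PERK senses stress of the endoplasmic reticulum, PKR senses double-stranded RNA, GCN2 senses uncharged tRNA and HRI senses heme shortage and mitochondrial stress. Phosphorylated eIF2 blocks its exchange factor eIF2B, general translation falls, and the ATF4 mRNA, which carries upstream reading frames, is translated more. ATF4 then pairs with C/EBP proteins on composite sites and drives genes for amino acid supply, a feedback phosphatase subunit and, with CHOP, cell death. ATF4 protein is thus set mainly by translation, and the mRNA counts given here measure neither ATF4 protein nor phosphorylation of eIF2.

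FO (follicular) B cells were sorted by surface markers from the spleens of C57BL6 mice aged 10 weeks. They were left unstimulated or were stimulated for 12 h with IFNα, a type I interferon, with CpG, a synthetic oligodeoxynucleotide sensed by TLR9, or with CpG + IFNα, in 3 samples per group. RNA was read by BRB sequencing, which tags each transcript near its 3′ end with a unique molecular identifier (UMI), so that counts do not grow with transcript length. Whether the unstimulated cells were cultured over the same time is not stated in the sources used here, so that culture and stimulus cannot be told apart in comparisons with them. Total counts per sample were between 922450 and 1103064 in unstimulated cells and between 1067324 and 2923865 in stimulated cells. Levels are given as normalized CPM, counts scaled to library size and TMM factors, in the order of replicates 1, 2 and 3. A gene was called when its Benjamini-Hochberg adjusted p in edgeR's quasi-likelihood test was under 0.1 and its log2 fold change was over 1 in size. The labels do not say that replicates came from separate mice, and p-values measure the spread between these samples.

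The identity of the sorted cells was checked by marker genes. The 10 B cell markers examined all had counts in each group, and their summed level was between 18344 and 20940 CPM in unstimulated cells, 17356 and 19447 CPM with IFNα, 6577 and 6829 CPM with CpG and 5874 and 5982 CPM with CpG + IFNα. The 4 T cell markers found in the table summed to at most 4.28 CPM. Erythroid markers summed to 57.4 to 345 CPM in unstimulated cells, 15.3 to 336 with IFNα, 4.99 to 60.8 with CpG and 5.65 to 72.0 with CpG + IFNα. Plasmacytoid dendritic cell markers summed to 1.82 to 7.49 CPM in unstimulated cells, 8.39 to 10.1 with IFNα, 6.42 to 19.6 with CpG and 20.01 to 22.1 with CpG + IFNα, with the defining marker Siglech at 0 in every group. Marginal zone B cell markers summed to 454 to 540.2 CPM in unstimulated cells, 548 to 594 with IFNα, 522 to 566 with CpG and 273 to 287 with CpG + IFNα, which lay below the other groups without overlap. Plasma cell markers summed to 255 to 380.4 CPM in unstimulated cells, 181 to 209.9 with IFNα, 186 to 205 with CpG and 200.1 to 271 with CpG + IFNα. The 7 myeloid markers found in the table summed to 13.6 to 36.4 CPM in unstimulated cells, 8.07 to 17.6 with IFNα, 4.91 to 7.49 with CpG and 5.17 to 7.19 with CpG + IFNα. Of these, Lyz2 was found in unstimulated cells alone, at 4, 9 and 3 counts, and S100a8 and Csf3r at 1 count each there. Adgre1 was higher with IFNα, at 6.69 to 12.97 CPM against 0.882 to 3.21 CPM in unstimulated cells. Mitochondrial genes took 6.06 to 7.70% of counts in unstimulated cells, 5.91 to 8.52% with IFNα, 3.29 to 4.85% with CpG and 2.99 to 3.52% with CpG + IFNα. The part of these cell types and of the mitochondrial share in the results was not tested. All values are from bulk RNA, in which fewer cells that express a gene and less of its RNA per cell cannot be told apart.

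The promoters of 4 members carried one of the motifs searched, and these are shown for that reason. The same 4 members had the largest log2 fold changes in size with CpG against unstimulated cells. This played no part in the choice, and a link between motif and change was not tested. TGATGNAA is the core of the C/EBP-ATF response element, the composite site of ATF4, and TGACGTCA is the palindrome bound by CREB and ATF dimers. Both strands were searched in windows from 250 bases before to 50 bases after the RefSeq start, on GRCm38.p6. All 10 members had a window, Atf5 had 2, and 3 of the 11 windows held TGATGNAA. Of all 32851 windows given, 1304 did (3.97%). TGACGTCA was in 1 of the 11 windows and in 588 of the 32851 (1.79%). With the letters TGATGCAA alone, 1 member window held a match, that of Chac1, beside 0.895% of all windows. On the sense strand alone, 1 did, that of Asns, beside 2.12% of all windows. The stretches below run from 250 bases before the start through the first 30 bases of the transcript, with the matched letters in capitals.
Asns: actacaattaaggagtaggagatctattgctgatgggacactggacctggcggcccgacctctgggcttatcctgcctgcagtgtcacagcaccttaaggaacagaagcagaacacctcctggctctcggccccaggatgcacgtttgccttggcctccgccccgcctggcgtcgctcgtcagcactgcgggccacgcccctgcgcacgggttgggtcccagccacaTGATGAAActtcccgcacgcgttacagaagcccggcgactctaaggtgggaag
Chac1: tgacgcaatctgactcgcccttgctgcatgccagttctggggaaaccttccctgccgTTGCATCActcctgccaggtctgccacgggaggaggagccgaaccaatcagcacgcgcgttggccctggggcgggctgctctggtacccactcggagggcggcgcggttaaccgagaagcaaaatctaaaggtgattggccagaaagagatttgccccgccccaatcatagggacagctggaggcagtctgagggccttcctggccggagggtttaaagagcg
Trib3: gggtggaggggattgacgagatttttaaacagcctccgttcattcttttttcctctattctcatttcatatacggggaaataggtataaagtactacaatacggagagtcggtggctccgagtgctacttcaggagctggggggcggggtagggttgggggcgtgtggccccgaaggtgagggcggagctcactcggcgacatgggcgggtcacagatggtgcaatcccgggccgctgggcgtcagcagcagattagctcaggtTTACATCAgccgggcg
Ppp1r15a: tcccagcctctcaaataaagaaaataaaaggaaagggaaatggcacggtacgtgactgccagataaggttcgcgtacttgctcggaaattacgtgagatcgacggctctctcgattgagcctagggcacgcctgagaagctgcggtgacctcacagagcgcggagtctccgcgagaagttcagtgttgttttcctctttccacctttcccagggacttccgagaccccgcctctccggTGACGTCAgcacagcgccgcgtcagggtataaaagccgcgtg
The Asns stretch is the minus strand of chr6:7693180-7693459, and its match TGATGAAA begins 23 bases before the start. The Chac1 stretch is the plus strand of chr2:119350992-119351271, and its match, TGATGCAA on the opposite strand, begins 193 bases before the start. The Trib3 stretch is the minus strand of chr2:152344031-152344310, and its match, TGATGTAA on the opposite strand, begins 14 bases after the start. The Ppp1r15a stretch is the minus strand of chr7:45526239-45526518, and its match TGACGTCA begins 12 bases before the start. The windows of Atf4, Atf5, Cebpg, Cebpb, Ddit3 and Sesn2 held neither motif, which says only that these letters are not in these windows.

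Levels of the 10 members did not move as a block. With CpG, Asns, Trib3, Chac1, Atf5 and Sesn2 rose, Cebpb, Ddit3 and Ppp1r15a fell, and Atf4 and Cebpg changed by less than the call required. With CpG + IFNα the same 5 genes were called higher than in unstimulated cells, and only Ppp1r15a was called lower. With IFNα alone, Trib3 and Chac1 were called higher and Cebpb and Ppp1r15a lower. Between CpG + IFNα and CpG, the comparison of IFNα on a background of CpG, only Cebpb was called, although 5 of the 10 had an adjusted p under 0.1, beside 15.4% of all tested genes.

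**Figure D1:**
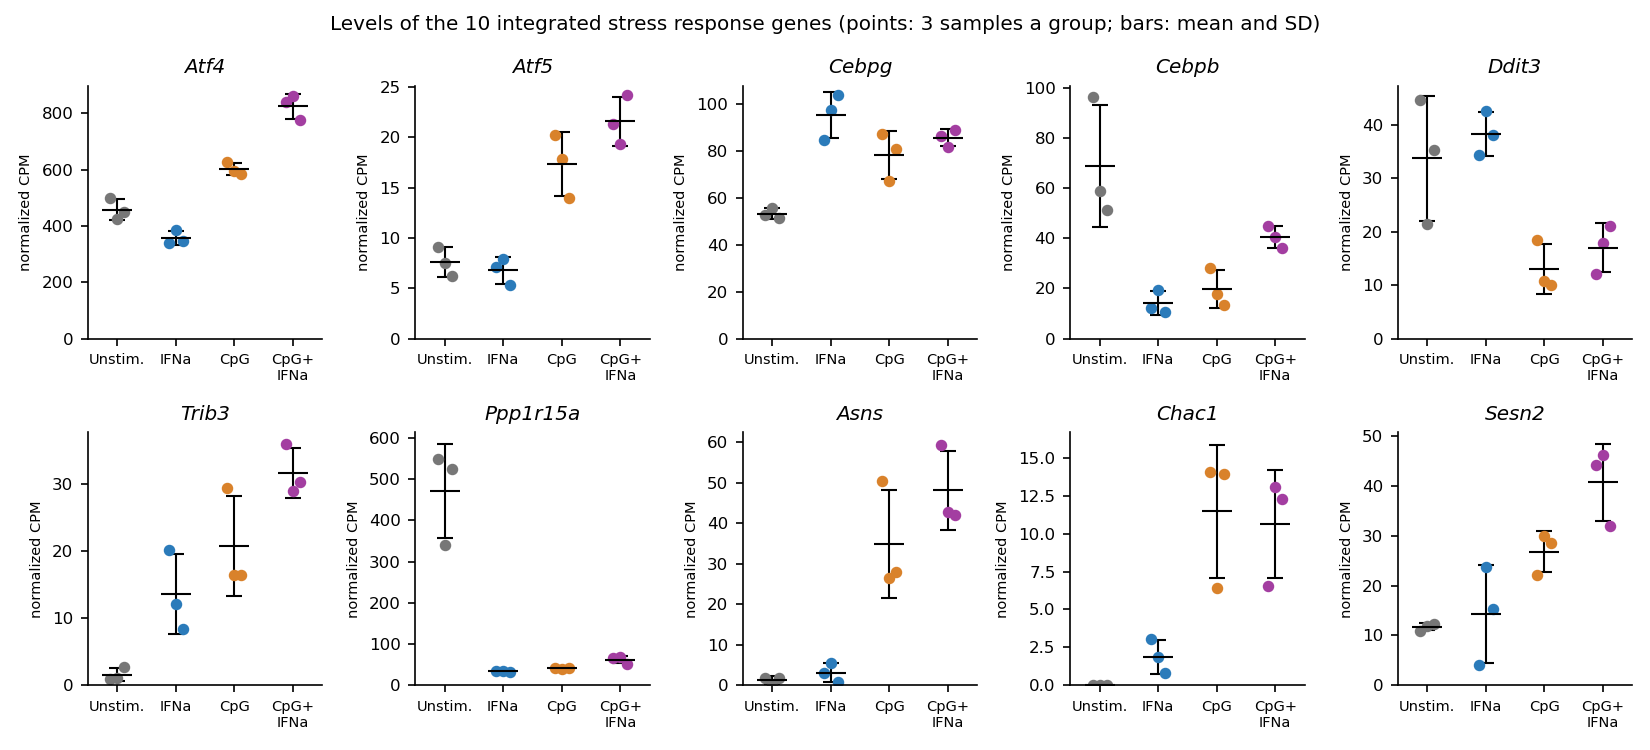
Normalized CPM of each of the 10 genes on linear axes from 0, 3 points per group for the 3 samples, with the mean and SD as bars. Ppp1r15a sits between 340.1 and 549 CPM in unstimulated cells and between 31.3 and 67.3 CPM in all stimulated samples, whereas Atf4 is highest with CpG + IFNα, at 777 to 861 CPM.

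Atf4 encodes the central transcription factor of the response (ENSMUSG00000042406, chr15:80255184-80257541, plus strand, GRCm38). Its level was 499.6, 425 and 451 CPM in unstimulated cells, 339, 385 and 345 CPM with IFNα, 629, 594 and 586 CPM with CpG and 841, 861 and 777 CPM with CpG + IFNα. The 4 groups did not overlap, and their order was IFNα, unstimulated, CpG, CpG + IFNα. Each step in that order passed the adjusted p but not the fold required for a call. IFNα alone was lower than unstimulated by a log2 fold change of -0.36 (SE 0.11, adjusted p = 0.0168). CpG was above unstimulated by 0.39 (SE 0.11, adjusted p = 0.00155), a 1.31-fold difference, and CpG + IFNα was above CpG by 0.46 (SE 0.10, adjusted p = 0.00197), a 1.37-fold difference. From IFNα to CpG + IFNα, between groups that were both stimulated, Atf4 rose by 1.21 (SE 0.11, adjusted p = 6.46e-12), a 2.32-fold difference that was called. The sign of the IFNα difference thus changed with CpG, negative without it and positive with it. The interaction (the IFNα difference in the presence of CpG less the one in its absence) was 0.82 (SE 0.15, adjusted p = 0.000329), under the fold required for a call.

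Atf5, a relative of ATF4 that is likewise under translational control and is linked to mitochondrial protein stress, lies on chr7:44812256-44816658, minus strand (ENSMUSG00000038539). Its level was 9.10, 7.49 and 6.18 CPM in unstimulated cells, 7.06, 7.90 and 5.34 CPM with IFNα, 20.3, 17.8 and 13.98 CPM with CpG and 21.3, 19.3 and 24.2 CPM with CpG + IFNα. Both groups with CpG lay above both groups without it. Atf5 rose 2.25-fold with CpG (log2 fold change 1.17, SE 0.31, adjusted p = 0.00144) and 2.81-fold with CpG + IFNα (1.49, SE 0.30, adjusted p = 4.16e-05) against unstimulated cells. Against IFNα it was called higher with CpG (1.32, SE 0.30, edgeR adjusted p = 0.000278) and with CpG + IFNα (1.64, SE 0.28, adjusted p = 5.9e-06). Neighbours within each pair did not differ beyond their spread. The difference was -0.15 (95% interval -0.94 to 0.64) between IFNα and unstimulated cells, and 0.32 (-0.14 to 0.77) between CpG + IFNα and CpG. The CpG call against unstimulated cells was lost when counts were drawn down to the smallest total (0.99, adjusted p = 0.0192). The annotated exons of Atf5 overlap those of Nup62 on the opposite strand, and the strand setting of the counting was not stated in the sources used here.

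The C/EBP members are partners of ATF4, and they moved in different ways. Cebpg encodes a short C/EBP protein that pairs with ATF4 on its composite sites (ENSMUSG00000056216, chr7:35046422-35056573, minus strand). Its level was 52.8, 55.6 and 51.2 CPM in unstimulated cells, 84.8, 97.3 and 103.8 CPM with IFNα, 87.2, 67.0 and 80.9 CPM with CpG and 86.2, 81.8 and 88.9 CPM with CpG + IFNα. All 9 stimulated samples lay above the 3 unstimulated ones. The log2 fold change against unstimulated cells was 0.85 with IFNα (SE 0.15, adjusted p = 4.96e-05), 0.57 with CpG (SE 0.15, adjusted p = 0.00118) and 0.69 with CpG + IFNα (SE 0.14, adjusted p = 9.36e-05), none of which reached the fold of a call. The 3 stimulated groups overlapped with each other, and CpG + IFNα differed from CpG by 0.12 (95% interval -0.14 to 0.37).

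Cebpb encodes C/EBPβ, an inducible partner of ATF4 and CHOP (ENSMUSG00000056501, chr2:167688915-167690418, plus strand). Its level was 96.5, 58.8 and 51.2 CPM in unstimulated cells, 12.1, 19.5 and 10.7 CPM with IFNα, 28.2, 17.8 and 13.5 CPM with CpG and 44.7, 40.4 and 36.0 CPM with CpG + IFNα. Unstimulated cells lay above all others, CpG + IFNα came next, and the IFNα and CpG groups overlapped. Cebpb fell by 2.24 on the log2 scale with IFNα (SE 0.27, adjusted p = 4.47e-08), a 4.71-fold difference, and by 1.81 with CpG (SE 0.24, adjusted p = 5.33e-08), a 3.52-fold difference. With CpG + IFNα it was 1.71-fold lower than in unstimulated cells, which was not called (log2 fold change -0.77, SE 0.21, adjusted p = 0.00131). CpG + IFNα was above CpG by 1.04 (SE 0.24, adjusted p = 0.0022) and above IFNα by 1.46 (SE 0.27, adjusted p = 1.16e-05), 2.06-fold and 2.75-fold. The call against CpG rested near the fold required, and it was lost without CpG replicate 2 (0.98), without CpG replicate 3 (0.79) and without CpG + IFNα replicate 1 (0.97). The interaction was 3.27 (SE 0.36, adjusted p = 6.02e-08). Cebpb is also a gene of myeloid cells. The 7 myeloid markers summed to 13.6 to 36.4 CPM in unstimulated cells and 8.07 to 17.6 CPM with IFNα, which overlap. Of these sums Adgre1 made up 0.882 to 3.21 CPM in unstimulated cells and 6.69 to 12.97 CPM with IFNα. Cd68 made up 4.55 to 12.84 CPM and 0 to 4.58 CPM. Lyz2, Csf1r, Itgam, S100a8 and Csf3r had counts in unstimulated cells and none with IFNα. The part of myeloid cells in the Cebpb result against unstimulated cells was not tested. In the CpG and CpG + IFNα groups the myeloid sums were 4.91 to 7.49 and 5.17 to 7.19 CPM, of which Cd68 made up 3.07 to 4.49 and 4.14 to 6.68 CPM. Itgam had counts in both groups, Adgre1 only with CpG and Csf1r only with CpG + IFNα, and their part in the difference between these groups was not tested. The exons of Cebpb overlap those of Tmem189 on the opposite strand.

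Ddit3 encodes CHOP, the factor that joins the response to cell death and that ATF4 induces under lasting stress (ENSMUSG00000025408, chr10:127290774-127296288, plus strand). Its level was 44.6, 21.4 and 35.3 CPM in unstimulated cells, 34.3, 42.6 and 38.2 CPM with IFNα, 18.4, 10.7 and 9.98 CPM with CpG and 12.0, 17.9 and 21.1 CPM with CpG + IFNα. The groups without CpG overlapped, as did the groups with CpG, and every sample with CpG lay below every sample without it. Ddit3 fell by 1.40 on the log2 scale with CpG against unstimulated cells (SE 0.27, adjusted p = 3.45e-05), a 2.64-fold difference. CpG was also 2.98-fold below IFNα (log2 fold change -1.58, SE 0.26, adjusted p = 2.25e-06) and CpG + IFNα was 2.25-fold below IFNα (-1.17, SE 0.23, adjusted p = 4.17e-05). Without CpG + IFNα replicate 1 the last difference was -0.99 and was no longer called. CpG + IFNα against unstimulated cells stood at the fold required, at -0.99 (SE 0.25, adjusted p = 0.000666), and was not called. It was called, at -1.19, -1.01 and -1.12, without unstimulated replicate 2, CpG + IFNα replicate 2 or CpG + IFNα replicate 3, and at -1.01 to -1.02 with median-ratio size factors, with library size only, with counts drawn down and with only these groups in the fit. IFNα differed from unstimulated cells by 0.18 (95% interval -0.30 to 0.66), and CpG + IFNα from CpG by 0.40 (-0.15 to 0.96). In the annotation the exons of Ddit3 overlap those of Mars on the opposite strand and a second entry named Ddit3 on the same strand, which is not a row of the count table used here.

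Trib3 encodes a pseudokinase that ATF4 and CHOP induce and that binds AKT and ATF4 itself (ENSMUSG00000032715, chr2:152337422-152344032, minus strand). Its level was 0.91, 1.07 and 2.65 CPM in unstimulated cells, 20.2, 12.2 and 8.39 CPM with IFNα, 29.5, 16.4 and 16.5 CPM with CpG and 36.0, 29.0 and 30.3 CPM with CpG + IFNα. All stimulated samples lay above the unstimulated ones, and IFNα overlapped with CpG and CpG with CpG + IFNα. Unstimulated cells held only 5 counts over the 3 samples, so that ratios to them are given with their 95% counting interval, which covers counting error only. The ratio was 8.19 (3.29 to 26.3) with IFNα, 13.1 (5.43 to 41.1) with CpG and 19.8 (8.36 to 61.7) with CpG + IFNα, and each was called (edgeR adjusted p = 0.000118, 7.89e-08 and 3.7e-10). CpG + IFNα exceeded IFNα 2.41-fold (log2 fold change 1.27, SE 0.27, adjusted p = 8.22e-05), a call, and exceeded CpG 1.52-fold (0.60, SE 0.23, adjusted p = 0.0895), which was not. CpG exceeded IFNα by 0.67 (SE 0.29, adjusted p = 0.0419), and without IFNα replicate 1 it was 1.004 and was called. The interaction was -2.38 (SE 0.63, adjusted p = 0.0138), the rise with IFNα being larger without CpG than with it, and it rests on the 5 counts of unstimulated cells.

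Ppp1r15a encodes GADD34, the inducible subunit that brings protein phosphatase 1 to eIF2 alpha and closes the response (ENSMUSG00000040435, chr7:45522916-45526268, minus strand). Its level was 549, 340.1 and 526 CPM in unstimulated cells, 34.3, 33.4 and 31.3 CPM with IFNα, 41.7, 39.9 and 40.4 CPM with CpG and 64.9, 67.3 and 51.4 CPM with CpG + IFNα. The groups did not overlap. Ppp1r15a fell in all stimulated groups. The log2 fold change was -3.84 with IFNα (SE 0.17, adjusted p = 4.68e-19), -3.54 with CpG (SE 0.16, adjusted p = 2.23e-19) and -2.94 with CpG + IFNα (SE 0.14, adjusted p = 2.05e-18), which are 14.3-fold, 11.6-fold and 7.68-fold differences. Among the stimulated groups, CpG + IFNα exceeded IFNα by 0.90 (SE 0.19, adjusted p = 8.8e-05) and CpG by 0.60 (SE 0.17, adjusted p = 0.0201), under the fold of a call. The first of these was called without CpG + IFNα replicate 3 (1.02) and without the filter on low counts (1.02). The interaction was 4.44 (SE 0.24, adjusted p = 4.45e-15). Of the 20 immediate-early genes examined, such as Fos and Junb, 18 were tested, and 16 fell with IFNα, beside 4.07% of all tested genes, and 17 with CpG, beside 25.5%, against unstimulated cells, so that Ppp1r15a was high in the same samples as these genes. Their interaction was called above 0 in 14 of the 18, beside 3.09% of all tested genes, at a median of 3.33 beside -0.05 over all of them, the sign seen in Ppp1r15a and Cebpb. Whether that state of the unstimulated cells came from sorting, culture or lack of stimulus cannot be told apart, and its part in the Ppp1r15a result was not tested.

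Asns encodes asparagine synthetase, a classical ATF4 target (ENSMUSG00000029752, chr6:7675169-7693254, minus strand). Its level was 1.82, 0 and 1.76 CPM in unstimulated cells, 3.03, 5.47 and 0.763 CPM with IFNα, 50.3, 26.4 and 28.0 CPM with CpG and 59.5, 42.8 and 42.1 CPM with CpG + IFNα. Groups with CpG lay far above groups without it, and the pairs within each overlapped. Unstimulated cells held 4 counts in all. Against them the ratio was 27.5 with CpG (95% counting interval 10.6 to 102.1) and 37.3 with CpG + IFNα (14.4 to 137.9), and both were called (edgeR adjusted p = 8.46e-10 and 1.58e-11). For IFNα it was 2.61 (0.806 to 10.98), which was not called (adjusted p = 0.325). Against IFNα, Asns rose by 3.38 with CpG (SE 0.39, adjusted p = 3.04e-09) and by 3.83 with CpG + IFNα (SE 0.36, adjusted p = 3.45e-11) on the log2 scale. The IFNα group held 13 counts in all, and the ratios were 10.6 with CpG (95% counting interval 6.01 to 20.2) and 14.3 with CpG + IFNα (8.25 to 27.2). Without IFNα replicate 2 the log2 fold changes were 4.27 and 4.72, and without IFNα replicate 3 they were 2.94 and 3.39, all called. CpG + IFNα differed from CpG by 0.45 (SE 0.21, adjusted p = 0.192), which was not called.

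Chac1 encodes an enzyme that degrades glutathione and is induced through ATF4 and CHOP (ENSMUSG00000027313, chr2:119351229-119354381, plus strand). It had no count in any unstimulated sample, 3.03, 1.82 and 0.763 CPM with IFNα, 14.1, 6.42 and 13.98 CPM with CpG and 6.55, 13.1 and 12.3 CPM with CpG + IFNα. Every sample with CpG lay above every sample without it, and the 2 groups with CpG overlapped. Set against a floor of 3 counts per library, Chac1 was at least 4.02-fold higher with CpG and at least 3.73-fold higher with CpG + IFNα than in unstimulated cells (edgeR adjusted p = 6.42e-07 and 7.67e-07). No fold is given for IFNα against unstimulated cells, since both groups were at or under that floor. It counted as called (adjusted p = 0.0591), but the adjusted p was 0.102 with DESeq2, 0.305 with counts drawn down, and 0.117 to 0.139 without any one of the unstimulated samples or without IFNα replicate 1. Against the 7 counts of the IFNα group, the ratio was 6.72 with CpG (95% counting interval 3.07 to 17.4, adjusted p = 4.53e-05) and 6.25 with CpG + IFNα (2.89 to 16.1, adjusted p = 6.17e-05). CpG + IFNα and CpG differed by -0.11 (95% interval -0.78 to 0.56).

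Sesn2 encodes sestrin 2, which is induced through ATF4 and p53 and restrains mTORC1 (ENSMUSG00000028893, chr4:132492032-132510501, minus strand). Its level was 10.9, 11.8 and 12.4 CPM in unstimulated cells, 4.04, 23.7 and 15.3 CPM with IFNα, 22.1, 29.9 and 28.5 CPM with CpG and 44.2, 46.2 and 31.9 CPM with CpG + IFNα. The IFNα samples spread on both sides of the unstimulated ones. Sesn2 rose 2.29-fold with CpG (log2 fold change 1.19, SE 0.32, adjusted p = 0.00151) and 3.5-fold with CpG + IFNα (1.81, SE 0.29, adjusted p = 1.97e-06) against unstimulated cells. CpG + IFNα exceeded IFNα 2.61-fold (1.39, SE 0.26, adjusted p = 1.76e-05), and the log2 fold change was 1.99 without IFNα replicate 2 and 1.07 without IFNα replicate 1, called in both. It exceeded CpG 1.53-fold without overlap between the groups, which was not called (0.61, SE 0.22, adjusted p = 0.0715). The difference of CpG from IFNα was 0.77 (SE 0.28, adjusted p = 0.0169), and without IFNα replicate 2 it was 1.38 and was called. IFNα differed from unstimulated cells by 0.42 (95% interval -0.32 to 1.17).

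**Figure D2:**
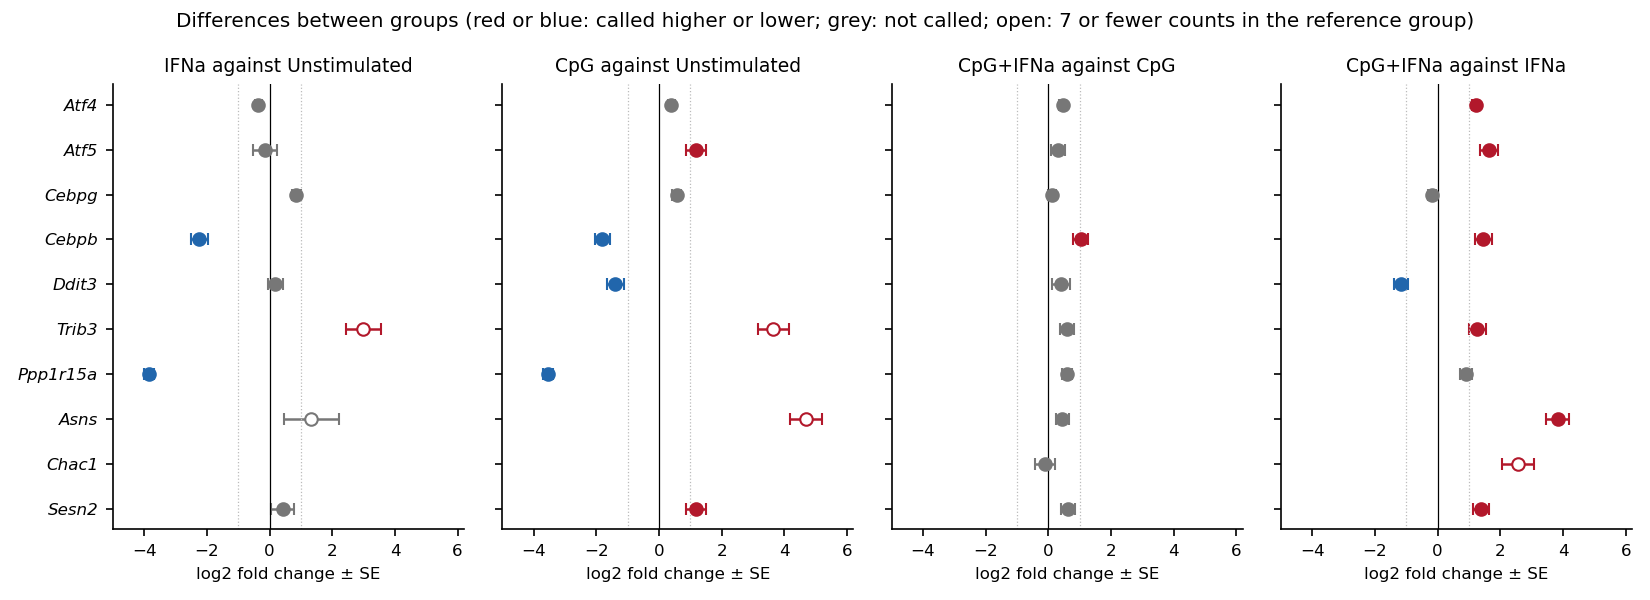
Log2 fold change with its SE for each gene in 4 comparisons, on a common linear axis, with dotted lines at the fold required for a call. Red and blue points were called higher and lower, grey points were not called, open points rest on 7 or fewer counts in the reference group, and Chac1 against unstimulated cells is left out because it had no count there. CpG + IFNα against CpG has 1 coloured point, Cebpb at 1.04, whereas CpG + IFNα against IFNα has 8.

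Counted over the members, IFNα against unstimulated cells had 2 of 10 called higher and 2 lower, beside 4.56% and 4.07% of all tested genes. CpG against unstimulated cells had 5 higher and 3 lower, beside 20.1% and 25.5% of all tested genes. Of those higher, Trib3, Asns and Chac1 had 5, 4 and 0 counts in all in unstimulated cells. They passed the filter only through stimulated groups, so that their calls are not independent of the filter. CpG + IFNα against unstimulated cells had 5 higher and 1 lower, beside 20.3% and 25.6%. CpG + IFNα against IFNα had 7 higher and 1 lower, beside 18.7% and 25.5%. CpG against IFNα had 3 higher and 1 lower, beside 19.4% and 24.7%. CpG + IFNα against CpG had 1 higher and 0 lower in edgeR, beside 2.95% and 2.01%. At an unadjusted p under 0.05 it had 6 higher and 0 lower, beside 9.42% and 13.9% of all tested genes, and DESeq2 also called 1 higher and 0 lower. The median log2 fold change of the 10 members in that last comparison was 0.45, against -0.04 over all tested genes, and 9 of the 10 values were above 0. The interaction had 2 of 10 called higher and 2 called lower, beside 3.09% and 3.17%, at a median of 0.21. Comparisons with unstimulated cells share those samples and are not independent of each other.

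The other parts of the pathway were described with lists of genes by role. The first list was the input of the response, with the kinases, eIF2, eIF2B and the phosphatase, and all 22 of its genes were tested. It also held Gcn1, Impact, Dnajc3, Oma1, Dele1 and Eif2a, which is a factor distinct from eIF2 alpha. With CpG, 7 of the 22 were called higher and 1 lower against unstimulated cells, beside 20.1% and 25.5% of all tested genes, with a median log2 fold change of 0.42 beside -0.03 over all tested genes. The 3 higher genes with the smallest p were subunits of eIF2 and eIF2B, the targets of the response, with Eif2s1 (eIF2 alpha) at 2.46 (SE 0.13, adjusted p = 2.57e-17), Eif2s2 (eIF2 beta) at 2.22 and Eif2b3 (eIF2B gamma) at 2.82. Eif2a was also among those called higher, at 1.06. The gene that was lower was Eif2ak3, which encodes PERK.

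Eif2ak2 (PKR), an interferon-stimulated gene, was at 23.7, 17.1 and 36.2 CPM in unstimulated cells, 309, 326 and 272 CPM with IFNα, 23.9, 19.96 and 22.5 CPM with CpG and 178.4, 190.4 and 178.8 CPM with CpG + IFNα. Both groups with IFNα lay above both groups without it, with a log2 fold change of 3.53 without CpG (SE 0.16, adjusted p = 2.87e-18) and 3.04 with CpG (SE 0.16, adjusted p = 6.35e-17). Eif2ak3 (PERK) was at 59.1, 50.3 and 48.5 CPM in unstimulated cells, 35.3, 48.0 and 34.3 CPM with IFNα, 11.1, 15.0 and 8.99 CPM with CpG and 3.27, 9.66 and 8.22 CPM with CpG + IFNα. It fell by 2.203 with CpG against unstimulated cells (SE 0.25, adjusted p = 1.94e-09) and by 2.41 from IFNα to CpG + IFNα (SE 0.26, adjusted p = 4.89e-10) on the log2 scale. Eif2ak1 (HRI), at 49.9 to 75.0 CPM over the 12 samples, and Eif2ak4 (GCN2), at 20.3 to 41.7 CPM, were called in none of the 7 comparisons. Eif2ak4 had an adjusted p of 0.0834 with IFNα and 0.0965 with CpG against unstimulated cells, at log2 fold changes of -0.60 and -0.43. Ppp1r15b, the constitutive partner of protein phosphatase 1 beside GADD34, was at 81.9 to 95.3 CPM in unstimulated cells and 161 to 187 CPM with CpG + IFNα (log2 fold change 0.91, SE 0.12, adjusted p = 9.89e-08), opposite in sign to Ppp1r15a and under the fold of a call.

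**Figure D3:**
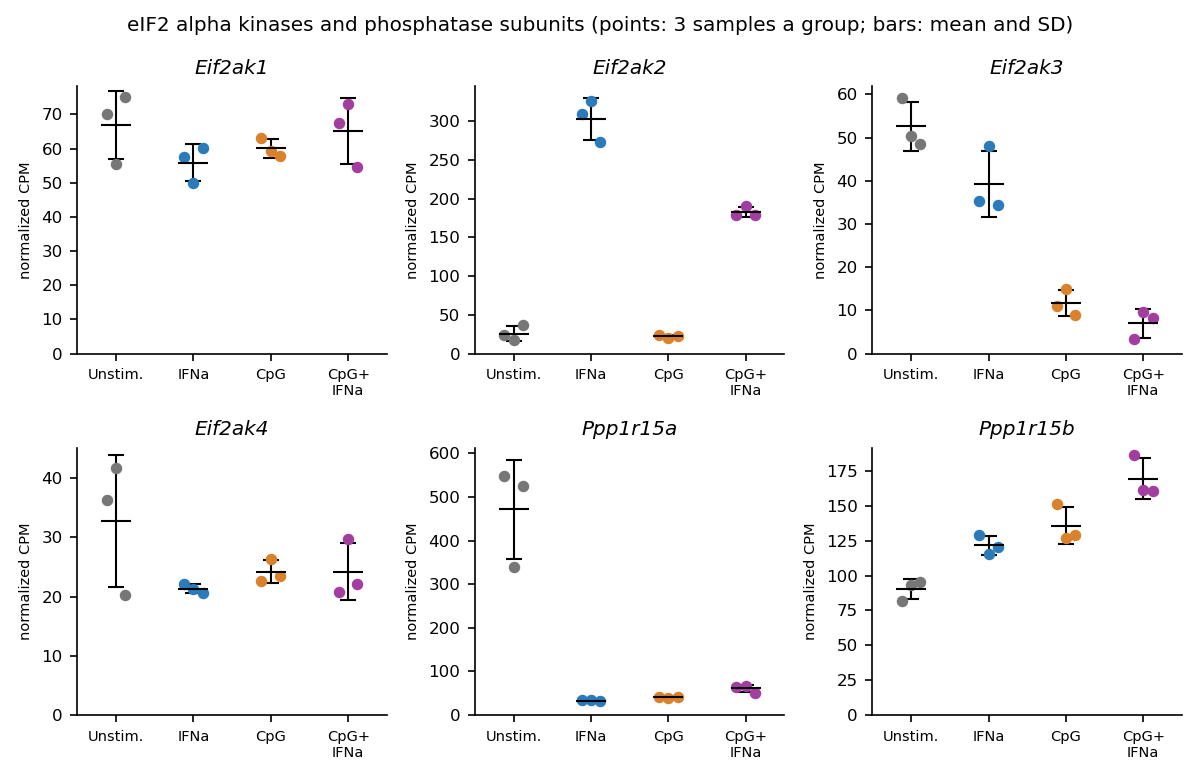
Normalized CPM of the 4 eIF2 alpha kinases and the 2 phosphatase subunits on linear axes from 0, 3 points per group, with the mean and SD as bars. Eif2ak2 lies between 178.4 and 326 CPM in the samples with IFNα and at 36.2 CPM or less without it, Eif2ak3 lies at 15.0 CPM or less in the samples with CpG, and Ppp1r15a and Ppp1r15b differ in direction from unstimulated to stimulated cells.

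Most targets of ATF4 in amino acid synthesis rose with CpG. Of the 16 synthesis genes, 14 were tested, and 13 of them were called higher with CpG against unstimulated cells, beside 20.1% of all tested genes, with a median of 2.29. They included Shmt2 and Mthfd2 of mitochondrial one-carbon metabolism, at 2.73 and 3.38, Psat1 of serine synthesis at 2.56, and Bcat1 of branched-chain amino acid turnover at 3.89. Mthfd2 was at 18.2 to 28.2 CPM in unstimulated cells, 43.5 to 68.1 CPM with IFNα, 222 to 260.3 CPM with CpG and 273 to 331 CPM with CpG + IFNα, and it was also called higher with IFNα alone (1.30, SE 0.21, adjusted p = 1.49e-05). Psat1 was at 26.4 to 37.1 CPM in unstimulated cells and 29.8 to 33.3 CPM with IFNα, a log2 fold change of -0.01 (SE 0.21). CpG + IFNα against CpG had 0 of the 14 called in edgeR and in DESeq2, at a median of 0.01. At an unadjusted p under 0.05, 2 were higher, beside 9.42% of all tested genes.

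Of 13 amino acid transporters, 9 were tested, and 5 were called higher with CpG, at a median of 1.04. Slc7a5, the light chain of the LAT1 transporter, was at 3.38 (SE 0.19, adjusted p = 2.12e-16) and Slc7a3, a transporter of cationic amino acids with 8 counts in all in unstimulated cells, was 33.3-fold higher by counts (95% counting interval 16.8 to 77.7). The other 4 were not called, and 3 of them had log2 fold changes below 0, Slc38a1 at -0.87, Slc38a2 at -0.58 and Slc1a5 at -0.47 (adjusted p = 2.04e-07, 0.000231 and 0.000633), which are named after their values were seen. With IFNα alone, 2 of the 9 were called higher, beside 4.56% of all tested genes, Slc7a5 at 1.22 and Slc1a4, a transporter of neutral amino acids. Slc1a4 had 3 counts in all in unstimulated cells and 26 with IFNα, a ratio of 6.96 (95% counting interval 2.13 to 35.9). The median of the 9 was then -0.31, and 2 were higher and 4 lower at an unadjusted p under 0.05, beside 15.1% of all tested genes in each direction, with Slc38a1 at -0.73 (adjusted p = 3.18e-05) and Slc1a5 at -0.52 (adjusted p = 0.00152). All 16 cytosolic aminoacyl-tRNA synthetases were tested, and 14 were called higher with CpG, those with the smallest p being Gars, Eprs and Rars at 2.32, 1.99 and 2.18, and 1 with IFNα, Aars at 1.03, a share near the 4.56% of all tested genes. With IFNα 12 of the 16 were higher and 0 lower at an unadjusted p under 0.05, beside 15.1% of all tested genes in each direction. Their median was 0.50. Of 7 tested genes of mitochondrial protein stress, all 7 were called higher with CpG, with Hspd1 (HSP60) at 3.58. With IFNα 0 of them were called in edgeR and in DESeq2, at a median of -0.03. There 3 were higher and 1 lower at an unadjusted p under 0.05, beside 15.1% of all tested genes in each direction. In CpG + IFNα against CpG, 0 transporters, synthetases or mitochondrial stress genes were called in edgeR or in DESeq2, at medians of 0.30, 0.04 and 0.12. At an unadjusted p under 0.05 there were 4 transporters higher and 1 lower, 2 synthetases higher and 2 mitochondrial stress genes higher. Over all tested genes at that cutoff, 9.42% were higher and 13.9% lower. These lists were chosen with earlier results of these data known, and with CpG 20.1% of all tested genes were called higher.

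Of 24 tested genes of the unfolded protein response outside PERK, 1 was called higher and 1 lower with CpG, beside 20.1% and 25.5% of all tested genes, Sdf2l1 at 1.31 and Syvn1 at -1.14. The median was 0.33, with 12 higher and 5 lower at an unadjusted p under 0.05, beside 35.4% and 37.2% of all tested genes. In CpG + IFNα against CpG 0 were called in edgeR or in DESeq2. At an unadjusted p under 0.05, 2 were higher and 7 lower, beside 9.42% and 13.9% of all tested genes. Of 25 tested genes from other targets of ATF4 or CHOP, 5 were called higher and 7 lower with CpG, beside 20.1% and 25.5% of all tested genes, so that these counts are no result about the list. Those higher included Cdkn1a, the cell cycle inhibitor p21, at 3.51, and those lower included Txnip and Klhl24 at -3.32 and -3.10, and Gadd45a, which had 7 counts in all with CpG and was 44.97-fold lower by counts (95% counting interval 21.4 to 113). CpG + IFNα against CpG had 3 of the 25 higher and 2 lower, beside 2.95% and 2.01% of all tested genes. The higher genes were Cdkn1a at 1.34, Tnfrsf10b (a TRAIL death receptor that CHOP induces) at 1.498 and Vegfa at 1.198, and the lower ones Klhl24 at -1.41 and Atg10 at -1.09. DESeq2 did not call Vegfa (adjusted p = 0.154) or Atg10 (adjusted p = 0.236), and called Ddit4, an inhibitor of mTORC1 signalling named after its values were seen, at 1.01 (adjusted p = 0.0217). Nupr1, Vldlr, Slc7a11, Gdf15 and Stc2, further targets of the response, did not pass the filter on low counts.

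Other bZIP factors of the C/EBP and ATF families were examined beside the members, and 16 of 24 were tested. CpG + IFNα against CpG called 2 higher and 1 lower, beside 2.95% and 2.01% of all tested genes. Atf3, an ATF induced downstream of ATF4, was at 86.4, 10.7 and 15.0 CPM in unstimulated cells, 7.06, 3.65 and 3.05 CPM with IFNα, 33.8, 26.4 and 37.9 CPM with CpG and 82.9, 84.2 and 80.7 CPM with CpG + IFNα. It was 1.32 above CpG with CpG + IFNα (SE 0.29, edgeR adjusted p = 0.00152), a call that was lost with DESeq2 (1.36, adjusted p = 0.327). Its interaction was 4.44 (SE 0.62, adjusted p = 6.42e-06), the sign seen in Cebpb and Ppp1r15a. Unstimulated replicate 1 stood apart from the other two in Atf3, and without it the interaction was 2.89 (adjusted p = 3.88e-05) and CpG against unstimulated cells was called at 1.36 (adjusted p = 7.63e-05). Creb3, at 1.102, was the other gene called higher. Cebpd, the delta member of the C/EBP family, was at 56.5, 39.9 and 71.4 CPM with CpG and 15.3, 12.4 and 26.2 CPM with CpG + IFNα, or -1.69 as log2 fold change (SE 0.23, adjusted p = 9.2e-07), opposite in sign to Cebpb. At most 2.14 CPM of Cebpd were found in any sample without CpG.

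**Figure D4:**
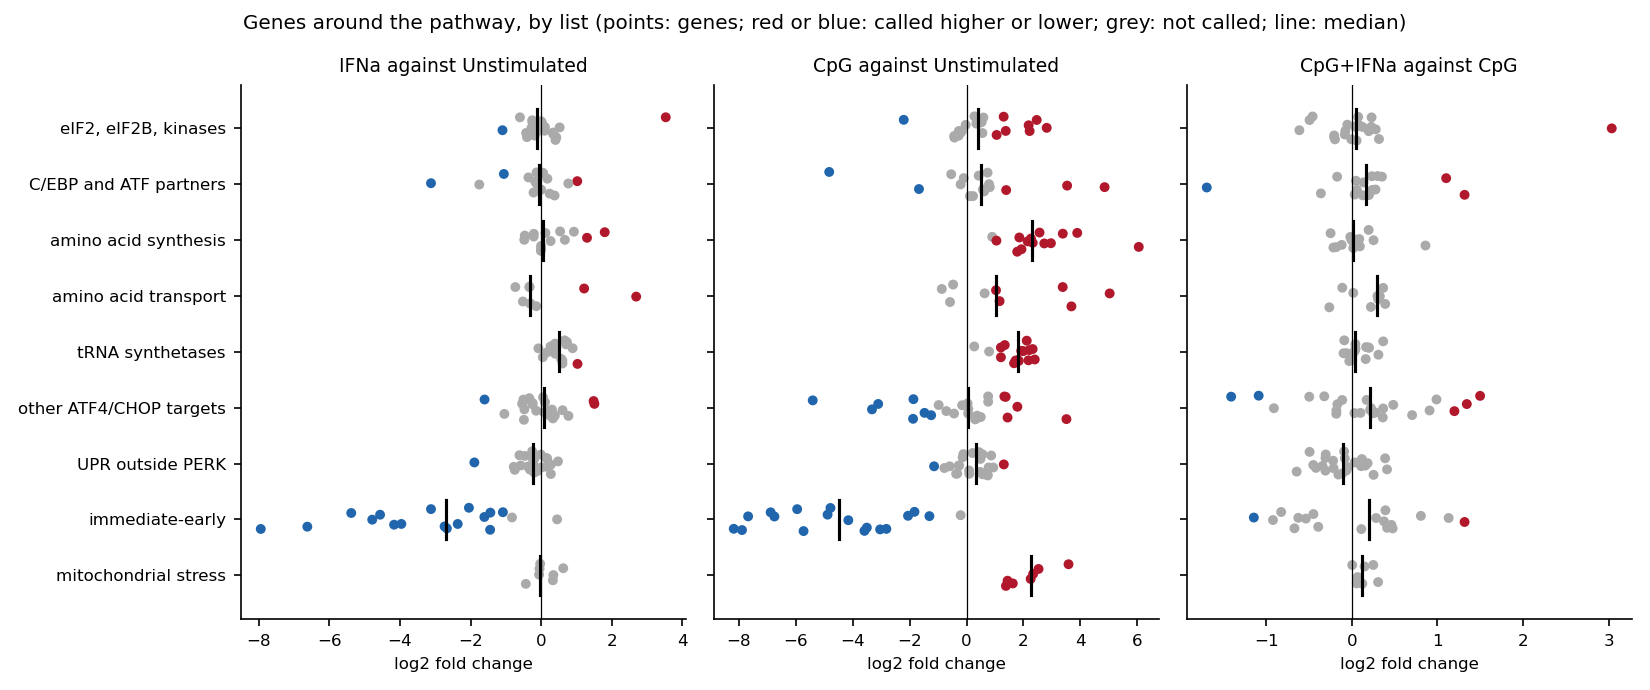
Log2 fold change of each tested gene in 9 lists for IFNα and CpG against unstimulated cells and for CpG + IFNα against CpG, each panel on its own linear axis. Red and blue points were called higher and lower, grey points were not, and black lines mark medians, which with CpG are at 2.29 for amino acid synthesis, 1.82 for tRNA synthetases and 2.25 for mitochondrial stress, and at 0.33 for the unfolded protein response outside PERK.

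Likeness of pattern was taken as Pearson's r of log2 CPM over the 12 samples, as a description, since the points share libraries and depth. The genes most like Atf4 were Fxr2 (r = 0.978), Slc3a2 (0.977), Snhg1 (0.972), Impdh1 (0.969) and Yrdc (0.969). Slc3a2, the heavy chain that pairs with Slc7a5, was at 131 to 145 CPM in unstimulated cells, 96.9 to 126 CPM with IFNα, 183 to 237 CPM with CpG and 261 to 296 CPM with CpG + IFNα, the order of groups seen in Atf4. Its difference between CpG + IFNα and CpG was 0.39 (SE 0.11, adjusted p = 0.0204). The genes most like Ddit3 were Vps11 (0.957), Fam160b2 (0.951), Natd1 (0.950), Sft2d1 (0.941) and Gba2 (0.937). The same 5 genes came out for each with a prior count of 0.5 in place of 2.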

How the data were processed

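The deposited table of the authors holds raw UMI counts for each gene. Per the labels and methods, they used UMI-tools 1.1.2, Trim Galore 0.6.7, HISAT2 2.2.1 on GRCm38 and featureCounts 2.0.1, and extended Tlr9. The annotation release and strand setting were not given in the sources used here. All 22561 identifiers matched GENCODE M21, used for positions on GRCm38. Promoter windows were from RefSeq.

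All 12 samples were fitted in 4 groups with TMM, filterByExpr and the quasi-likelihood test of edgeR 4.0.16 in R 4.3.3, with 8 residual degrees of freedom, and p-values were adjusted over 9431 genes. CpG against IFNα, the fits of Atf3 without each sample and the DESeq2 calls of list genes were added after the data were seen. Levels are TMM-normalized CPM. The log2 CPM for likeness had a prior count of 2. The test was checked on simulated counts.

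All 10 members are described with their levels in every group, but not every comparison is given for each of them. From the lists some called genes are named, not always those with the smallest p, and a few that were not called. All kinases and the subunits Ppp1r15a and Ppp1r15b are named whatever they did. Members and lists were chosen with earlier results of these data known. Alternatives were other scalings, filters and thresholds, DESeq2 1.42.0, fewer groups, counts drawn down, a replicate block and each sample left out. The barcode list, which names the samples and holds no measurements, was not used in any fit.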

Additional observations from a re-analysis of the deposited data

Results flagged for a closer look

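The interaction of IFNα and CpG was called above 0 in 2 members and below 0 in 2 by edgeR's test, beside 3.09% and 3.17% of all tested genes. It uses the unstimulated group, in which culture and lack of stimulus cannot be told apart, and 14 of the 18 tested immediate-early genes also had a called interaction, above 0, at a median of 3.33. The log2 value was 3.27 for Cebpb (adjusted p = 6.02e-08), 4.44 for Ppp1r15a (adjusted p = 4.45e-15), -2.38 for Trib3 (adjusted p = 0.0138) and -4.65 for Chac1 (adjusted p = 0.0914). For Cebpb and Ppp1r15a, IFNα was lower without CpG (-2.24 and -3.84) and higher with CpG (1.04 and 0.60). The values of Trib3 and Chac1 rest on 5 and 0 counts in unstimulated cells, and the Chac1 interaction had an adjusted p of 0.198 with DESeq2 and 0.416 with counts drawn down.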

How the results depend on the processing

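Of 70 values (10 members in 7 comparisons), 62 kept their sign under all alternatives run, and the 8 that did not were not called. With every library drawn down to the lowest total, Cebpg and Chac1 in CpG + IFNα against CpG were at -0.12 and 0.0013. With single samples left out, Atf5 in IFNα against unstimulated cells ranged from -0.32 to 0.016, Ddit3 there from -0.036 to 0.43, Sesn2 there from -0.17 to 0.77, Chac1 in CpG + IFNα against CpG from -0.37 to 0.12, and the interactions from -0.027 to 0.55 for Ddit3, from -0.16 to 0.78 for Sesn2 and from -1.34 to 0.0051 for Asns. Members called in CpG + IFNα against CpG ranged from 0 to 1 as single samples were left out.
With a log2 fold change over 2, genes called were 251 for IFNα, 1677 for CpG and 1826 for CpG + IFNα against unstimulated cells, 165 for CpG + IFNα against CpG, 1698 for it against IFNα, 1648 for CpG against IFNα and 155 for the interaction. Members called were then 4 for CpG against unstimulated cells, 0 for CpG + IFNα against CpG, and 2 each for CpG + IFNα and CpG against IFNα. With no minimum fold, genes called in the same order were 2295, 7062, 7204, 1450, 7158, 7120 and 1266, and members called were 10 for CpG + IFNα against unstimulated cells, 5 against CpG and 8 for CpG against IFNα. With only the groups compared in the fit, 2 members were called for IFNα, since Trib3, Asns and Chac1 did not pass the filter there. In such fits 7 members were called for CpG against unstimulated cells and 3 for CpG against IFNα, beside 8 and 4 in the main fit.
With the replicate number as a block, all 70 values kept their call, and 472 genes were called in CpG + IFNα against CpG beside 468 without it. Same-numbered samples correlated at -0.07 to 0.20 over 18 pairs, 5 of them over 0.1, and 10 of 12 samples correlated best with their own number, which is a hint from the data. The sample titles and the deposited barcode list give the same numbers, after the prefix WT in the latter, to samples of each group and do not say whether a number marks 1 mouse. At this depth Chac1, Trib3 and Asns in unstimulated cells were near the limit of 3 counts per library.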

Other observations

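Some stress genes outside the 10 members moved with IFNα alone. Bbc3, which encodes the cell death protein PUMA, was 1.49 above unstimulated cells on the log2 scale (SE 0.33, adjusted p = 0.00103) and Cdkn1a 1.51 above them (SE 0.38, adjusted p = 0.00363). Gadd45a, a stress gene of growth arrest, was lower with IFNα at -1.60 (SE 0.24, adjusted p = 4.72e-06). These were the 3 of 25 tested genes from the list of other targets of ATF4 or CHOP that were called, 2 higher and 1 lower. Over all tested genes 4.56% were higher and 4.07% lower, so that these counts are no result about the list. Nfe2l2, which encodes the oxidative stress factor NRF2, was higher with IFNα at 1.02 (SE 0.17, adjusted p = 1.65e-05), and it was lower with CpG + IFNα than with IFNα at -1.28 (SE 0.15, adjusted p = 7.14e-09). Dnajb9, a chaperone cofactor of the endoplasmic reticulum, was lower with IFNα at -1.89 (SE 0.21, adjusted p = 1.16e-08), and its interaction was 1.55 (SE 0.27, adjusted p = 0.000201).

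Among the bZIP factors, Batf, an AP-1 factor of activated lymphocytes, rose with CpG at 3.53 (SE 0.17, adjusted p = 4.1e-18) and from IFNα to CpG + IFNα at 3.49 (SE 0.17, adjusted p = 1.83e-18). Maf was called lower in the same comparisons (adjusted p = 3.21e-08 and 2.8e-06), with 3 counts in all in the CpG group and 3 in the CpG + IFNα group. By counts it was 32.3-fold lower with CpG than in unstimulated cells (95% counting interval 10.6 to 161) and 20.3-fold lower with CpG + IFNα than with IFNα (6.42 to 103). All p-values are from edgeR's quasi-likelihood test.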
